A study of Mus musculus with 289 samples.

Results

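Cells labelled with a guide RNA against Sox9 and collected on day 7 were compared with cells labelled as carrying no guide. The g-Sox9 group held 21 single cells labelled astrocyte and the no-gRNA group 6, chosen by their guide, day and batch labels from the 45 columns of batch 3 and the 289 samples of the series. Each cell was drawn with an electrophysiology pipette from the brain of a transgenic mouse and made into a Smart-seq2 library, a full-length cDNA method that carries no molecular identifiers. The design describes adult Cas9-expressing mice injected in the cerebral cortex with Mok-LV, a lentivirus made to act in astrocytes, which carried the guides.

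Cells labelled g-Sox9 were from day 7 after injection. A set of 14 g-Sox9+Trps1 cells, labelled with guides against both genes, came from day 7 of the same batch. Another 4 libraries of that batch and day were in-slice controls with no cell. The no-gRNA cells were labelled adult, with no day. No label states the strain, the promoter that drives Cas9, or whether a virus was given to the mice of the no-gRNA group. The labels name no animal, so each group is 1 pool of libraries and no test between the groups could be made.

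Sox9 is a transcription factor of the SOX family. It specifies glial cells in the developing nervous system and cartilage elsewhere in the body, and mature astrocytes keep expressing it. Microglia are the resident macrophages of the brain, and they make complement component C1q, lysosomal proteases and the fractalkine receptor. Astrocytes near an injury turn reactive, with more of the intermediate filament protein Gfap.

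The no-gRNA cells were shallow. Reads in genes ran from 111941 to 2162028 per g-Sox9 cell, with a median of 1444748, and from 15959 to 1540474 per no-gRNA cell, with a median of 236508. Pooled reads came to 30048861 in g-Sox9 cells and 3297698 in no-gRNA cells, and the 2 deepest no-gRNA cells held 84.6% of their pool. Genes with a read numbered 3334 to 12740 in g-Sox9 cells and 1231 to 7236 in no-gRNA cells. A ribosomal RNA row, CT010467.1 (ENSMUSG00000106106), took 12.99% of the g-Sox9 pool and 42.0% of the no-gRNA pool. Its share ran from 0.904% to 49.997% in single g-Sox9 cells and from 27.3% to 78.6% in single no-gRNA cells. Mitochondrial genes took 4.52% of the g-Sox9 pool and 1.80% of the no-gRNA pool.

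**Figure D1:**
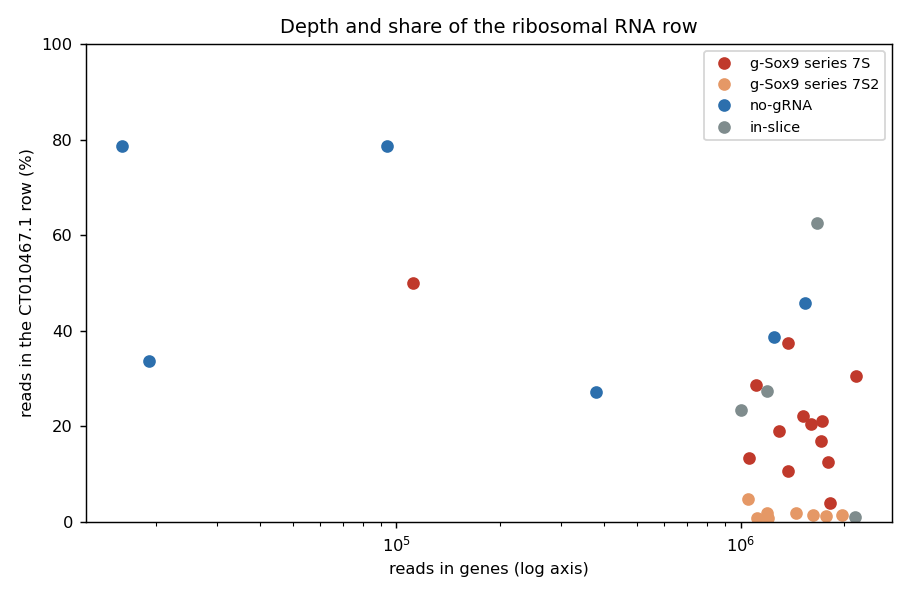
Reads in genes per library (x axis, log scale) and the percent of them in the ribosomal RNA row CT010467.1 (y axis), 1 point per library. The 8 g-Sox9 cells of title series 7S2. lie between 0.904% and 4.76%, and every no-gRNA cell lies at 27.3% or more.

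Levels are given as pooled CPM, a gene's reads per 1000000 reads in genes over the summed cells. Intervals are exact Poisson limits at 95% for CPM and Clopper-Pearson limits for shares of cells, and both cover counting error only, because reads without molecular identifiers are not independent molecules. Log2 ratios compare the pools after 5 CPM is added to each, which draws low genes towards 0. Over the 11896 genes at 5 CPM or more in either pool the median log2 ratio was 1.43, so most genes stood higher in the g-Sox9 pool. Of 8131 genes at 20 CPM or more, 5023 (61.8%) had a log2 ratio of at least 1 and 1234 (15.2%) had one of -1 or less. These counts were 3515 and 1992 with a TMM scaling factor, 3191 and 2206 with median-of-ratios factors, and 4676 and 1891 when the ribosomal RNA row was left out of the totals. They describe libraries of unequal depth, with no replicate check, and the part that depth has in them was not tested. Thinned to 12000 reads outside the ribosomal RNA row, g-Sox9 cells still held more genes, with a median of 2746 per cell (1587 to 4914) against 1569 (1087 to 3109) in the 5 no-gRNA cells deep enough.

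Among the g-Sox9 cells, 15 held astrocyte transcripts and 6 held few. The summed level of Aqp4, Gja1 and Slc1a3, which encode the water channel, the gap junction protein and a glutamate transporter of astrocytes, was 362 CPM or more in those 15 cells and 501 CPM or more in the 6 no-gRNA cells. In the other 6 g-Sox9 cells it was 53.6 CPM at most, and in the 4 in-slice libraries 11.996 CPM at most. All 6 of those cells belonged to title series 7S, which holds 13 of the g-Sox9 cells, while series 7S2. holds the other 8. Of these 6 cells, 4 held more summed oligodendrocyte markers than every no-gRNA cell, whose highest sum was 1489 CPM. In the other 15 cells the median sum was 1544 CPM and the highest 8419 CPM, so some of them passed that level too. Summed pan-neuronal markers reached 56655 CPM among the 6 cells and 24707 CPM among the 15, against 3150 CPM in no-gRNA cells. The label astrocyte was therefore not borne out by Aqp4, Gja1 and Slc1a3 in 6 of 21 cells. Results below are also given for the other 15.

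The guide sequences counted in the table were read in most g-Sox9 cells. A first Sox9 guide was read in 13 of 21 cells and a second in 16, with at least 1 of the pair in 19. The Trps1 guide was read in 4 of the g-Sox9 cells, with 2 reads at most. The 6 no-gRNA cells held no guide read, and 1 read each of the Sox9 guides was found among the in-slice libraries. In the 14 dual-guide cells the same rows were read in 12, 3 and 9 cells.

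Sox9 itself (ENSMUSG00000000567, GRCm38 chr11:112782224-112787760, plus strand) was not lower in the pool of cells labelled with its guide. Across g-Sox9 cells it ran from 0 through a median of 412 CPM to 7718 CPM. The 6 no-gRNA cells stood at 550, 28.02, 892, 382, 0 and 125 CPM. Pooled Sox9 was 1303 CPM (1290 to 1316) in g-Sox9 cells and 382 CPM (361 to 403) in no-gRNA cells, a log2 ratio of 1.76. The ranges overlapped, and 8 of 21 g-Sox9 cells lay above every no-gRNA cell.

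The excess of Sox9 sat in series 7S2., whose pool held 2767 CPM and gave a log2 ratio of 2.84. The pool of series 7S held 412 CPM and a ratio of 0.11, but the median of its 13 cells was 3.64 CPM and 5 of them held over 100 CPM, so a few cells carried that level. In series 7S2 the median was 2211 CPM and 8 of 8 cells held over 100 CPM, and the median of the no-gRNA cells was 254 CPM. With the ribosomal RNA row left out the overall ratio was 1.18. In the 15 cells with astrocyte markers the median Sox9 level was 1013 CPM, and in the 6 without them it was 35.7 CPM at most. A Cas9 cut need not lower the mRNA of a gene, so these levels say nothing of whether the gene was cut. Of the 19 cells with a Sox9 guide read, 12 held over 100 CPM of Sox9, as did 1 of the 2 cells without such a read.

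Trps1 (ENSMUSG00000038679, chr15:50654752-50890463, minus strand), which encodes a repressor with a GATA-type zinc finger, stood at 74.0 CPM (71.0 to 77.2) in g-Sox9 cells and 109 CPM (97.6 to 120) in no-gRNA cells. Its log2 ratio of -0.52 turned to 2.1 without the highest cell of either group. It was -1.73 with series 7S alone and 0.42 with 7S2. alone. In the pool of dual-guide cells Trps1 stood at 294 CPM and Sox9 at 1492 CPM, and each level leaned on 1 cell. The highest dual-guide cell held 3454 CPM of Trps1 and the next 613 CPM. For Sox9 the highest held 14893 CPM and the next 1737 CPM. A comparison of dual-guide with no-gRNA cells shares the same no-gRNA cells.

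**Figure D2:**
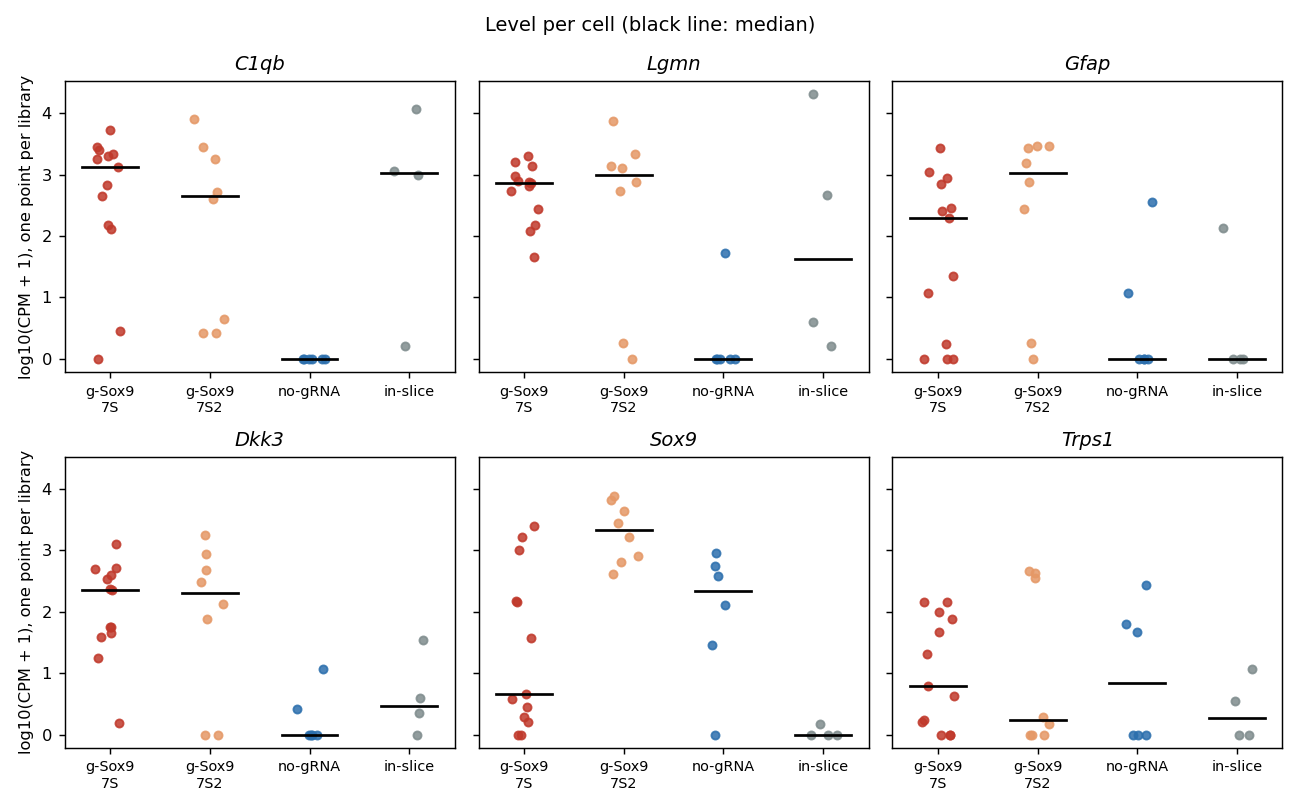
Level of 6 genes per library as log10(CPM + 1) (y axis), with g-Sox9 cells by title series, then no-gRNA cells, then in-slice controls (x axis); black lines are medians. C1qb has no read in any no-gRNA cell, and the Sox9 levels of series 7S2., at 412 CPM or more, lie above the median of the no-gRNA cells.

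The 4 genes given as markers of this contrast were all higher in the g-Sox9 pool. C1qb (ENSMUSG00000036905, chr4:136880129-136886187, minus strand) encodes a chain of complement component C1q. It ran from 0 through a median of 676 CPM to 7996 CPM in g-Sox9 cells. All 6 no-gRNA cells stood at 0. The pools held 1733 CPM (1718 to 1748) in g-Sox9 cells against 0 in no-gRNA cells. With 3 reads over the pool as the floor, 0.910 CPM, pooled C1qb was at least 1905-fold higher in g-Sox9 cells. This bound covers counting error of pooled reads only, not the choice of cells or transcripts that a library missed. A no-gRNA cell without a C1qb read held 100 CPM of C1qa, another chain of C1q.

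A C1qb read was found in 20 of 21 g-Sox9 cells (95.2%, 76.2 to 99.9) and 0 of 6 no-gRNA cells (0 to 45.9). When each cell was thinned to 12000 reads outside the ribosomal RNA row, these were 16 of 21 (76.2%, 52.8 to 91.8) and 0 of 5 (0 to 52.2). The in-slice controls, which should hold no astrocyte, stood at 993, 1145, 11667 and 0.600 CPM of C1qb. Their pool held 4569 CPM, more than the g-Sox9 pool, and each of the 4 had a read, so the share of g-Sox9 cells with a read did not exceed that of libraries without a cell.

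Lgmn (ENSMUSG00000021190, chr12:102394084-102439813, minus strand) encodes legumain, a lysosomal protease. In g-Sox9 cells it ran from 0 through 745 to 7510 CPM, and 20 of 21 cells had a read. Among no-gRNA cells 1 library had a single read, which comes to 52.5 CPM in a cell of 19048 reads, and the other 5 stood at 0. The pools held 1238 CPM (1225 to 1250) in g-Sox9 cells and 0.303 CPM (0.00768 to 1.69) in no-gRNA cells. The ratio of 4081 rests on that 1 read and has a counting interval of 732 to 161202. In-slice libraries stood at 457, 2.98, 20256 and 0.600 CPM.

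Gfap (ENSMUSG00000020932, chr11:102887336-102900912, minus strand), the intermediate filament protein of reactive astrocytes, ran from 0 through 270 to 2923 CPM in g-Sox9 cells. The no-gRNA cells stood at 0, 351, 0, 10.6, 0 and 0 CPM, so 1 cell carried nearly the whole pool. Pooled levels were 890 CPM (879 to 900) in g-Sox9 cells and 133 CPM (121 to 146) in no-gRNA cells, a log2 ratio of 2.7. Without the highest cell of each pool they were 762 CPM in g-Sox9 cells and 0.488 CPM in no-gRNA cells, and the ratio was 7.13. Series 7S gave 1.93 and series 7S2. gave 3.44. A Gfap read was found in 1 of the 4 in-slice libraries, at 135 CPM. After thinning, 14 of 21 g-Sox9 cells and 2 of 5 no-gRNA cells had a read.

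Dkk3 (ENSMUSG00000030772, chr7:112116017-112159057, minus strand) encodes a secreted protein of the Dickkopf family, which includes Wnt inhibitors. It ran from 0 through 221 to 1776 CPM in g-Sox9 cells and reached 10.6 CPM at most in no-gRNA cells. The pools held 328 CPM (322 to 335) in g-Sox9 cells and 0.910 CPM (0.188 to 2.66) in no-gRNA cells. The in-slice libraries stood at 33.6, 2.98, 0 and 1.20 CPM. The log2 ratio of 5.82 was 5.61 in series 7S and 6.10 in series 7S2. Of 21 g-Sox9 cells, 18 lay above every no-gRNA cell.

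The region upstream of the start that RefSeq gives is shown for C1qb and C1qc, which neighbour each other on chromosome 4 and stood high together, and for Lgmn and Gfap from the given markers. Each run holds 250 bases on GRCm38.p6, ending at the base before the start, written 5′ to 3′ on the minus strand on which the gene lies. Capitals mark the letters GAGGAA or TTCCTC, the core that the myeloid ETS factor PU.1 prefers, and would also mark ACAAT or ATTGT, the core bound by SOX proteins. The motifs were picked with these sequences in view.
C1qb (chr4:136886201-136886450): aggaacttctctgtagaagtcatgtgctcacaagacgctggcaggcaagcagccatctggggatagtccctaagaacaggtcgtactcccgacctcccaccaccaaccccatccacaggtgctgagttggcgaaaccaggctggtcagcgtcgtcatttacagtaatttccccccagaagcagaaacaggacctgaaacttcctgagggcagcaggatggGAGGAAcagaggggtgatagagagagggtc
C1qc (chr4:136892915-136893164): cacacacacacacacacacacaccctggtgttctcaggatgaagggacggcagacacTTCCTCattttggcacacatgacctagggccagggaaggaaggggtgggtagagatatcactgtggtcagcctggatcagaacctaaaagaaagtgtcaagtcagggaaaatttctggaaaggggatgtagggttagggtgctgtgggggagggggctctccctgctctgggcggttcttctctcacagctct
Lgmn (chr12:102439729-102439978): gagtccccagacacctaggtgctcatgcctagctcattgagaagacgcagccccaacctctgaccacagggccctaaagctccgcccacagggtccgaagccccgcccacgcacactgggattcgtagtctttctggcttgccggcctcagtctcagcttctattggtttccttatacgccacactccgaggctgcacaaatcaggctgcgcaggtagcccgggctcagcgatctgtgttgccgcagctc
Gfap (chr11:102897201-102897450): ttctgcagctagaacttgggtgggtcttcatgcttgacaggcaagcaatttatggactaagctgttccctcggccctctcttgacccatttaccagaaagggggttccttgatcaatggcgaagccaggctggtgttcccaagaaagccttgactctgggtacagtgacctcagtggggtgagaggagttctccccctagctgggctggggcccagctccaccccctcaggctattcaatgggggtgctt
The ETS letters occurred in 1 place each upstream of C1qb and C1qc and in none upstream of Lgmn and Gfap. Over the 27025 genes with such a window, 25.9% held them. Among the 12 genes named higher below, 9 had a window and 3 held the ETS letters, the third gene being Ctss. The SOX letters were in none of those 9 windows and in 2 of 13 windows of the genes named lower, Clmn and Prelp, against 30.9% of windows in all. A match is a description of letters and not a bound site.

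Genes were then named by a rule that asked for 20 CPM in the higher pool, a difference in the thinned share of cells, and a log2 ratio of at least 1 without the highest cell of each pool, in the same direction in both title series. Of 8131 genes, 888 (10.9%) met it as higher in g-Sox9 cells and 266 (3.27%) as lower, and of the first 14 each way 12 higher and 13 lower genes are described. None of the 25 turned its direction under any of the 19 alternatives run, of which 3 belong to the rule itself. A change of pseudocount cannot turn a sign, and the genes were picked for large ratios, so this is no independent check. The ranges of single cells overlapped between the groups for every one of the 25 genes, because both groups held a library with no read.

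Products of microglia led the higher genes. C1qc and C1qa, the other chains of C1q, stood at 1098 and 1051 CPM in g-Sox9 cells against 0 and 38.2 CPM in no-gRNA cells. In single g-Sox9 cells C1qc ran from 0 through 971 to 3700 CPM, and C1qa from 0 through 899 to 3359 CPM. Ctss, a lysosomal cysteine protease, stood at 1480 CPM (1466 to 1493) in g-Sox9 cells and 98.3 CPM (87.8 to 110) in no-gRNA cells. Nearly all of the no-gRNA level came from 1 cell at 259 CPM, and its log2 ratio of 3.85 was 7.62 without the highest cells.

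Genes of antigen presentation and myelin followed. H2-D1 and H2-K1, heavy chains of MHC class I, stood at 1028 and 609 CPM in g-Sox9 cells and at 0 in no-gRNA cells. Against the same floor the pooled levels were at least 1130-fold and 669-fold higher, again a bound for counting error only. The sequences of H2-D1 and H2-K1 are alike and the handling of shared reads is not stated, so the split between the pair is uncertain. Mbp, a main protein of myelin, ran from 0 through 624 to 15250 CPM in g-Sox9 cells and from 0 through 18.5 to 624 CPM in no-gRNA cells. Its pools held 2281 CPM in g-Sox9 cells and 241 CPM in no-gRNA cells, a log2 ratio of 3.21 that was 2.1 in the cells with astrocyte markers. Trf, the iron carrier transferrin, which oligodendrocytes also make, stood at 645 CPM in g-Sox9 cells and 0 in no-gRNA cells. By counting error alone that was at least 709-fold higher against the same floor.

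The last of the higher genes were Sparc, a secreted matrix protein, at 540 CPM in g-Sox9 cells and 0.606 CPM in no-gRNA cells, and Dazap2, a small proline-rich protein, at 498 CPM in g-Sox9 cells and 47.0 CPM in no-gRNA cells. Sparc was read in 17 of 21 g-Sox9 cells and 2 of 6 no-gRNA cells. In the in-slice pool 8 of these 12 genes stood higher than in the g-Sox9 pool, among them Lgmn at 7351 CPM, C1qa at 4056 CPM and Sparc at 2117 CPM. Those 3 levels came mostly from 1 in-slice library, at 20256, 10808 and 5782 CPM. The other in-slice libraries held at most 457, 600 and 206 CPM of them. Gfap (26.7 CPM), Mbp (783 CPM), H2-K1 (375 CPM) and Dazap2 (268 CPM) stood lower in the in-slice pool than in the g-Sox9 pool.

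Among the genes lower in g-Sox9 cells, Slc30a10, an exporter of manganese, ran from 0 through 0 to 813 CPM in g-Sox9 cells, of which 5 of 21 had a read. The no-gRNA cells stood at 354, 231, 97.7, 648, 0 and 0 CPM. Pooled levels were 33.9 CPM (31.9 to 36.1) in g-Sox9 cells and 283 CPM (265 to 301) in no-gRNA cells, a log2 ratio of -2.88. Sox1, a SOX factor of neural progenitors, was read in 3 of 21 g-Sox9 cells and 2 of 6 no-gRNA cells, and stood at 1.10 CPM in g-Sox9 cells and 273 CPM in no-gRNA cells. Pou3f4, a POU factor of neural development, stood at 12.3 CPM in g-Sox9 cells and 170 CPM in no-gRNA cells. Mnt, a repressor that pairs with Max, stood at 2.03 CPM in g-Sox9 cells and 118 CPM in no-gRNA cells.

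Etnppl, an astrocyte enzyme that breaks down phosphoethanolamine, stood at 23.1 CPM in g-Sox9 cells and 121 CPM in no-gRNA cells. Aldh9a1, an aldehyde dehydrogenase, stood at 13.3 CPM in g-Sox9 cells and 210 CPM in no-gRNA cells and was read in 8 of 21 g-Sox9 and 4 of 6 no-gRNA cells. Prelp, a matrix proteoglycan, stood at 2.00 CPM in g-Sox9 cells and 123 CPM in no-gRNA cells.

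The actin genes Ssh1, a phosphatase acting on cofilin, and Flna, a crosslinker of actin, stood at 0.566 and 8.22 CPM in g-Sox9 cells and 252 and 97.9 CPM in no-gRNA cells. Clmn, which carries actin-binding domains, stood at 29.8 CPM in g-Sox9 cells and 288 CPM in no-gRNA cells, where 5 of 6 cells had a read. Trmt10c, a subunit of mitochondrial RNase P, stood at 3.96 CPM in g-Sox9 cells and 455 CPM in no-gRNA cells. Zfyve26, a protein of lysosome reformation, stood at 7.12 CPM in g-Sox9 cells and 420 CPM in no-gRNA cells, and the zinc finger gene Zfp46 at 6.76 CPM in g-Sox9 cells and 143 CPM in no-gRNA cells. For 6 of these 13 genes the reads of the no-gRNA pool came from 2 of its 6 cells.

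**Figure D3:**
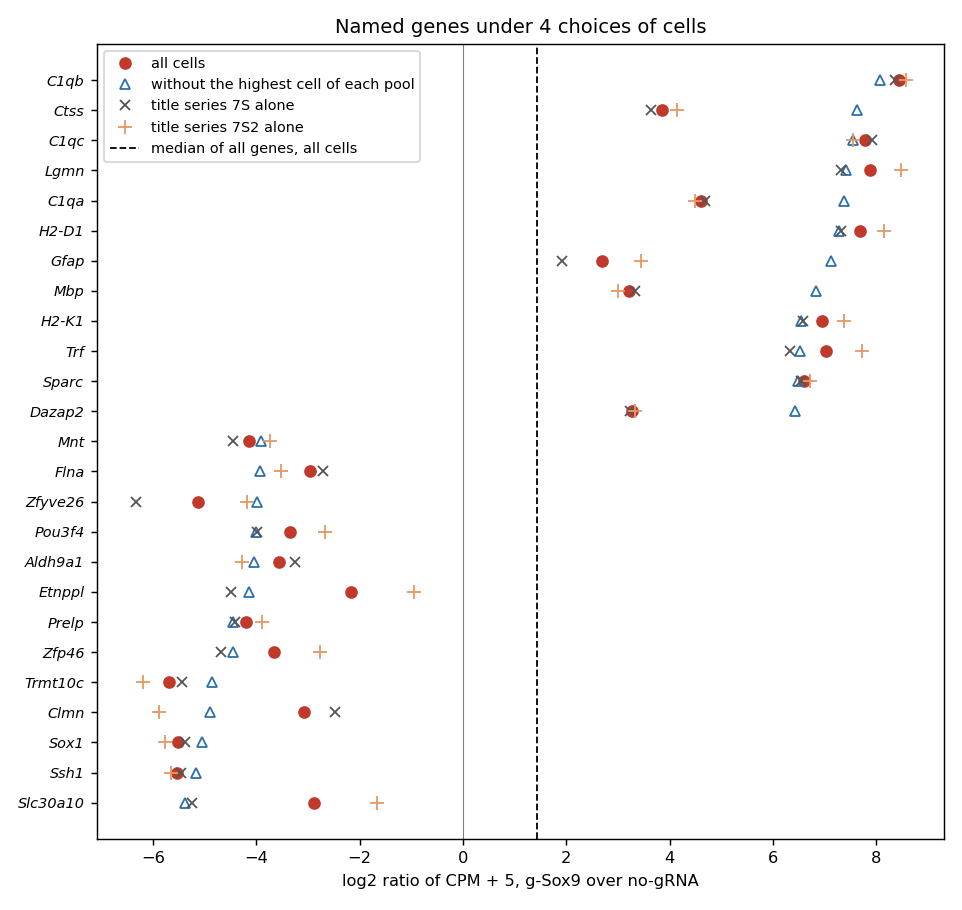
Log2 ratio of pooled CPM + 5, g-Sox9 over no-gRNA (x axis), for 25 genes named by the rule (y axis) under 4 choices of cells. The rule asked for 1 direction without the highest cells and in both series; Gfap has 1.93 with series 7S alone and 3.44 with series 7S2 alone.

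Microglial and macrophage markers were high as a list. Of 28 members at 5 CPM or more in either pool, 28 had a log2 ratio of at least 1 and none had -1 or less, with a median of 4.66. Over all genes at that minimum 63.5% were past the same ratio as higher and 13% as lower, and the median was 1.43. The fractalkine receptor Cx3cr1 stood at 505 CPM in g-Sox9 cells and 0 in no-gRNA cells, and the membrane protein Tmem119 at 88.3 CPM in g-Sox9 cells and 0 in no-gRNA cells. The growth factor receptor Csf1r stood at 770 CPM in g-Sox9 cells and 24.6 CPM in no-gRNA cells, and the purine receptor P2ry12 at 195 CPM in g-Sox9 cells and 4.25 CPM in no-gRNA cells. Of the 28 members, 14 had no read in the no-gRNA pool.

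The summed level of this list ran from 1.11 through 8328 to 60281 CPM per g-Sox9 cell and from 0 through 114 to 977 CPM per no-gRNA cell. In the in-slice libraries, which hold no cell, it ran from 5.40 through 7872 to 93901 CPM, while their summed Aqp4, Gja1 and Slc1a3 stayed at or under 11.996 CPM. Of the 15 g-Sox9 cells with astrocyte markers, 13 lay above every no-gRNA cell, as did 2 of the 6 without them. The list's median was 5.03 in those 15 cells, 4.54 in series 7S and 4.96 in series 7S2. Dual-guide cells ran from 16.5 through 2757 to 41038 CPM. The part that free RNA of the slice has in the levels of g-Sox9 cells was not tested.

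**Figure D4:**
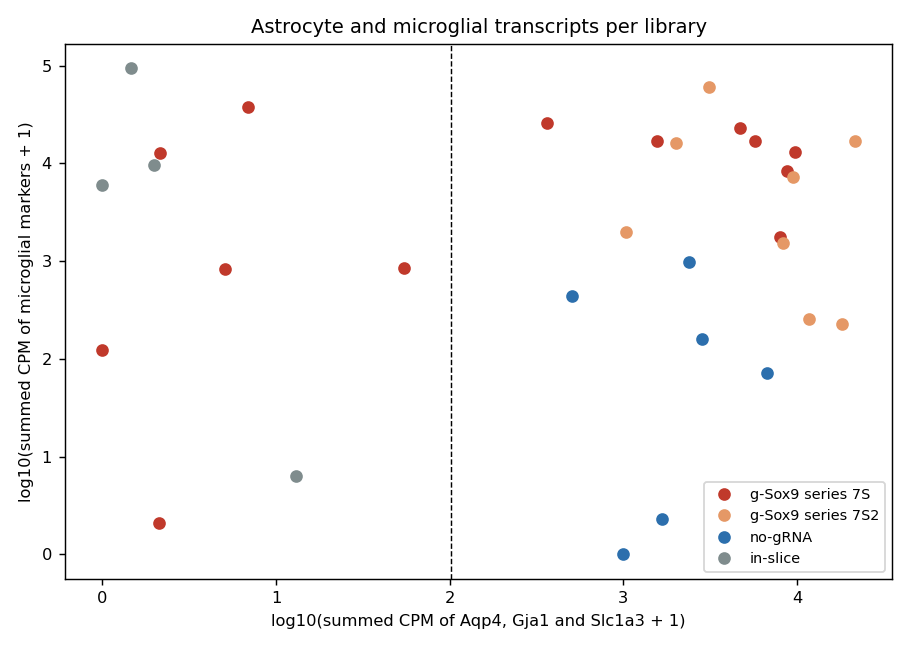
Summed CPM of Aqp4, Gja1 and Slc1a3 (x axis) against summed CPM of the microglial marker list (y axis), both as log10(CPM + 1), 1 point per library; the dashed line marks 100 CPM. The 15 g-Sox9 cells to the right of the line share the x range of the no-gRNA cells or lie beyond it, and 13 of them lie above the highest no-gRNA cell.

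Lysosomal and antigen-presentation genes were high beside the microglial markers. Of 33 genes of lysosome and phagocytosis, 26 (78.8%) were past a log2 ratio of 1 as higher, beside 63.5% of all genes, and 1 as lower. Their median was 2.38, against 1.43 for all genes. The cathepsins Ctsb and Ctsd stood at 2248 and 2542 CPM in g-Sox9 cells and 99.2 and 196 CPM in no-gRNA cells, and the lysosomal protein Grn at 464 CPM in g-Sox9 cells and 1.21 CPM in no-gRNA cells. The member that was lower was Mertk, an engulfment receptor of astrocytes and macrophages, at 54.2 CPM in g-Sox9 cells and 331 CPM in no-gRNA cells. Of 19 genes of MHC and peptide presentation, 17 (89.5%) were higher and 2 (10.5%) lower, beside 63.5% and 13% of all genes, with a median of 2.8. B2m, the light chain of class I, stood at 1538 CPM in g-Sox9 cells and 84.3 CPM in no-gRNA cells and was read in 21 of 21 g-Sox9 and 2 of 6 no-gRNA cells. Cd74, the invariant chain of class II, stood at 91.4 CPM in the g-Sox9 pool, with a read in 6 of 21 cells, and 0 in no-gRNA cells.

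The summed lysosomal list stood at 14584 CPM in the g-Sox9 pool and 2095 CPM in the no-gRNA pool, beside 27749 CPM in the in-slice pool. Its median was 11450 CPM per g-Sox9 cell and 5161 CPM per in-slice library, of which the highest held 72076 CPM. The summed presentation list stood at 4102 CPM in the g-Sox9 pool and 195 CPM in the no-gRNA pool, beside 4282 CPM in the in-slice pool. Its median was 2083 CPM per g-Sox9 cell and 1015 CPM per in-slice library, of which the highest held 10824 CPM. The part that free RNA of the slice has in these levels was not tested.

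Interferon genes were high too, and some of them had no read in the in-slice libraries. Of 26 measured members, 23 (88.5%) were higher and 1 (3.85%) lower, beside 63.5% and 13% of all genes. The median log2 ratio was 2.9, against 1.43 for all genes. Ifitm3, which blocks viral entry, stood at 154 CPM in the g-Sox9 pool, with a read in 12 of 21 cells. Ifit1, which binds viral RNA, stood at 83.3 CPM in that pool, with a read in 9 cells. Irf7, a transcription factor of the interferon response, stood at 82.9 CPM, with a read in 11 cells. All 3 had no read in the 6 no-gRNA cells or in the 4 in-slice libraries. Ifit1 and Irf7 came chiefly from series 7S, with log2 ratios of 4.78 and 4.77 there and 0.54 and 0.77 in series 7S2. Lgals3bp, a secreted glycoprotein, stood at 375 CPM in g-Sox9 cells and 6.06 CPM in no-gRNA cells, and at 457 CPM in the in-slice pool. That in-slice level came mostly from 1 library at 1218 CPM.

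The lower member, Rsad2, the antiviral enzyme viperin, stood at 16.9 CPM in the g-Sox9 pool and 392.4 CPM in the no-gRNA pool. In the no-gRNA pool 2 of 6 cells had a read of it. The summed list ran from 28.4 through 1391 to 4900 CPM per g-Sox9 cell and from 0 through 201 to 828 CPM per no-gRNA cell. The no-gRNA libraries were shallower, and absence of a read there is a weak limit. In dual-guide cells Ifitm3 stood at 28.9 CPM and Irf7 at 10.6 CPM.

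Reactive astrocyte genes were mostly higher. Of 26 measured members, 23 were past the ratio as higher and 2 as lower, beside 63.5% and 13% of all genes. The median of 2.46, against 1.43 for all genes, was 1.45 without the highest cells, where all genes stood at 1.44, so the list then stood at the level of all genes. Vim, an intermediate filament protein of immature and reactive astrocytes, stood at 113 CPM in the g-Sox9 pool and Cd44, a hyaluronan receptor, at 64.2 CPM. They were read in 11 and 9 of 21 g-Sox9 cells. Both had no read in no-gRNA cells. C4b, a complement component, stood at 260 CPM in g-Sox9 cells and 4.85 CPM in no-gRNA cells. Cd14, a coreceptor for lipopolysaccharide that microglia also express, stood at 211 CPM in g-Sox9 cells and 0 in no-gRNA cells. In the in-slice pool Cd14 stood at 441 CPM, from 1 library at 1231 CPM. Vim, Cd44 and C4b stood at 0.166, 9.13 and 8.64 CPM in that pool.

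Serpina3n, a secreted protease inhibitor that marks reactive astrocytes, went the other way. It stood at 255 CPM in the g-Sox9 pool and 801 CPM in the no-gRNA pool, with a log2 ratio of -1.63. Reads of it were found in 6 of 21 g-Sox9 cells and 4 of 6 no-gRNA cells. The ratio was -5.76 in the 15 cells with astrocyte markers. In dual-guide cells it stood at 1607 CPM. The summed reactive list was 2777 CPM in the g-Sox9 pool and 1749 CPM in the no-gRNA pool, where 16 of the measured members had no read.

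Astrocyte identity genes had nearly the same summed level in both pools when totals included the ribosomal RNA row. Of 32 members, 3 were past the ratio as higher and 4 as lower, and 25 lay between, beside 63.5% and 13% of all genes. Their median log2 ratio was -0.32, against 1.43 for all genes. The sum was 42391 CPM in the g-Sox9 pool and 41863 CPM in the no-gRNA pool. These totals include the ribosomal RNA row, at 12.99% of the g-Sox9 pool and 42.0% of the no-gRNA pool. Clu, the secreted chaperone clusterin, stood at 4096 CPM in g-Sox9 cells and 3929 CPM in no-gRNA cells, and Slc1a3 at 2028 CPM in g-Sox9 cells and 1436 CPM in no-gRNA cells. Gja1 stood at 2605 CPM in g-Sox9 cells and 693 CPM in no-gRNA cells. Gpr37l1, an astrocyte receptor, stood at 972 CPM in g-Sox9 cells and 2528 CPM in no-gRNA cells, and Fgfr3, a growth factor receptor, at 240 CPM in g-Sox9 cells and 846 CPM in no-gRNA cells. The list's median was -0.77 in series 7S and 0.25 in series 7S2., so its direction differed between the title series. The list's median was -0.90 with the ribosomal RNA row left out and -0.10 in the cells with astrocyte markers, where all genes stood at 1.32 and 1.39.

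Astrocyte transcription factors were spread about 0, with 10 of 24 (41.7%) higher, 7 (29.2%) lower and a median of 0.05. Over all genes these were 63.5%, 13% and 1.43. Hey1 and Hes5, targets of Notch, stood at 98.7 and 103 CPM in g-Sox9 cells and 2.73 and 1.52 CPM in no-gRNA cells. Hes5 was read in 5 g-Sox9 cells. Their relatives Hes1 and Hey2 went the other way, at 81.7 and 12.4 CPM in g-Sox9 cells and 315 and 47.9 CPM in no-gRNA cells. The log2 ratio of Hes1, -1.88, was 0.92 without the highest cells. Pax6, a factor of neural progenitors and of some astrocytes, stood at 18.8 CPM in g-Sox9 cells and 486 CPM in no-gRNA cells, and Glis3, a zinc finger factor, at 4.36 CPM in g-Sox9 cells and 203 CPM in no-gRNA cells. Of 9 measured genes of the Sox list, 7 (77.8%) were higher and 1 (11.1%) was lower, beside 63.5% and 13% of all genes. The lower one was Sox13, at 0 in g-Sox9 cells and 7.58 CPM in no-gRNA cells. Sox8, a close relative of Sox9, stood at 92.1 CPM in g-Sox9 cells and 11.2 CPM in no-gRNA cells. Sox10, the oligodendrocyte relative, stood at 90.3 CPM in g-Sox9 cells and 0 in no-gRNA cells, but its log2 ratio was 0.03 in the cells with astrocyte markers.

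Genes of transport at the astrocyte membrane held a median log2 ratio of 0.02, with 6 of 25 higher and 4 lower. Over all genes the median was 1.43, with 63.5% higher and 13% lower. Slc38a3, a glutamine transporter, stood at 194 CPM in g-Sox9 cells and 1793 CPM in no-gRNA cells, with 3494 CPM in the highest no-gRNA cell. Its log2 ratio of -3.18 was -1.01 without the highest cells. Of 19 genes of cartilage and extracellular matrix, among them targets of Sox9 in chondrocytes, 12 (63.2%) were higher and 1 lower. The share of higher genes was near the 63.5% of all genes, and the median was 1.44 beside 1.43 for all genes. Col2a1, the classical cartilage target of Sox9, stood at 5.52 CPM in the g-Sox9 pool, from 1 of 21 cells. It had no read in no-gRNA cells.

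Genes of cholesterol and fatty acid synthesis had a median log2 ratio of -0.36, beside -0.32 for astrocyte identity genes and 1.43 for all genes. Of 28 members, 5 were higher and 9 lower, against 63.5% and 13% of all genes. Srebf1, a transcription factor of lipid synthesis, stood at 132 CPM in g-Sox9 cells and 765 CPM in no-gRNA cells. Fdft1, the squalene synthase, stood at 82.4 CPM in g-Sox9 cells and 1154 CPM in no-gRNA cells, and Insig1, a feedback inhibitor of the pathway, at 91.6 CPM in g-Sox9 cells and 485 CPM in no-gRNA cells. Mvd and Nsdhl, enzymes of the same pathway, stood at 80.4 and 69.0 CPM in g-Sox9 cells and had no read in no-gRNA cells. The median was -1.34 in cells with astrocyte markers, -1.30 in series 7S2 and -0.35 in series 7S, where astrocyte identity genes stood at -0.77. The summed list ran from 125 through 2603 to 6890 CPM per g-Sox9 cell and from 439 through 5870 to 10402 CPM per no-gRNA cell, so the groups overlapped.

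Targets of p53, which responds to DNA breaks such as those Cas9 makes, were past the ratio as higher in 14 of 18 and as lower in 1. These shares were 77.8% and 5.56%, beside 63.5% and 13% of all genes. The median was 1.73 beside 1.43 for all genes. Cdkn1a, an inhibitor of the cell cycle, stood at 168 CPM in the g-Sox9 pool and 0.606 CPM in the no-gRNA pool. It was read in 18 of 21 g-Sox9 cells and 1 of 6 no-gRNA cells. Phlda3, an inhibitor of Akt, stood at 150 CPM in the g-Sox9 pool, and Aen, an apoptosis nuclease, at 110 CPM. They were read in 12 and 13 g-Sox9 cells, and neither had a read in no-gRNA cells. Mdm2, the ubiquitin ligase that curbs p53, stood at 53.9 CPM in g-Sox9 cells and 3.03 CPM in no-gRNA cells. The in-slice pool held 111 CPM of Cdkn1a, in 1 of 4 libraries, and 0 of Phlda3. The summed p53 list stood at 2379 CPM in the in-slice pool and 1335 CPM in the g-Sox9 pool. Gdf15, another member, stood at 1924 CPM in the in-slice pool and 5.32 CPM in the g-Sox9 pool. The median sum per in-slice library was 222 CPM, and the highest 6416 CPM. The part that free RNA of the slice has in these levels was not tested. In dual-guide cells Cdkn1a stood at 176 CPM and Phlda3 at 146 CPM. The summed p53 list ran from 102 through 1249 to 3797 CPM per g-Sox9 cell and from 0 through 110 to 3167 CPM per no-gRNA cell, so the groups overlapped. In 1 no-gRNA cell Btg2 alone held 2542 CPM.

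Markers of oligodendrocytes were higher in 14 of 14 measured members, beside 63.5% of all genes, with a median of 3.78. Their sum ran from 80.4 through 1843 to 68441 CPM per g-Sox9 cell and from 0 through 68.4 to 1489 CPM per no-gRNA cell. In the in-slice libraries, which hold no cell, the sum ran from 1461 through 4638 to 5463 CPM. The part that free RNA of the slice has in the levels of g-Sox9 cells was not tested. The median log2 ratio of the list dropped to 1.71 in the 15 cells with astrocyte markers, near the 1.39 of all genes there. Progenitor markers were higher in 6 of 8, a share near that of all genes, with a median of 3.23 that was 0.71 in those 15 cells. Gpr17, a receptor of oligodendrocyte precursors, stood at 217 CPM in the g-Sox9 pool and 0 in no-gRNA cells. It was read in 7 of 21 g-Sox9 cells, and its log2 ratio was 0.51 in the cells with astrocyte markers.

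**Figure D5:**
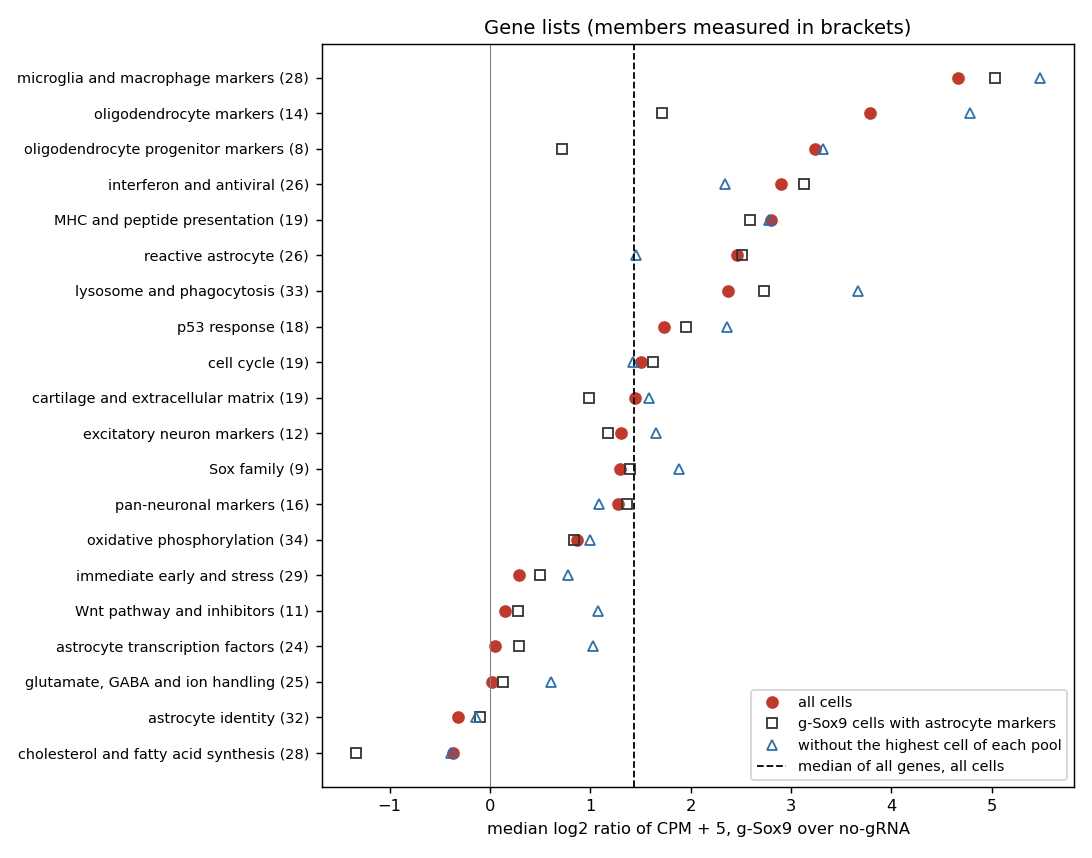
Median log2 ratio of CPM + 5, g-Sox9 over no-gRNA (x axis), of the 20 gene lists with 8 or more measured members (y axis), over all cells, over g-Sox9 cells with astrocyte markers and without the highest cell of each pool; the dashed line is the median of all genes at 1.43. Microglial markers lie at 4.66 and astrocyte identity at -0.32.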

How the data were processed

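The authors deposited batch 3 as 1 table of unnormalized read counts, 1 column per library, with whole numbers and unequal totals; the tables of the other batches were not used here. The submitters' processing notes name the tools STAR 2.6.0a and RSEM 1.3.0 and the builds GRCm38 and mm10 without their roles; no source states how strand was handled, so overlapping and antisense genes cannot be told apart. The 3 guide rows, which name no gene, held 0.00115% of counts and stayed out of totals. Symbols were found for 24265 of 24304 gene rows. Coordinates come from GENCODE on GRCm38 and promoter sequences from RefSeq on GRCm38.p6. No 2 of the 45 columns were identical (990 pairs).

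Counts were summed per group (Python 3.11.15, numpy 2.4.6, pandas 2.3.3, scipy 1.17.1; TMM from edgeR 4.0.16), and log2 ratios used a pseudocount of 5 CPM, with list members counted at 5 CPM or more. A gene was named at 20 CPM or more in the higher pool, with a read in 40% of its thinned cells, a thinned share differing by 20 percentage points and a log2 ratio of at least 1 either way without the highest cells; mitochondrial, ribosomal protein and unnamed genes were left out, and the first 14 each way were kept. Some genes so chosen are not reported here. Sox9, Trps1, C1qb, Lgmn, Gfap and Dkk3 were always named, as were at most 2 members per list in each direction. Other list genes described were chosen after their values were seen. No planned thinning depth kept 5 no-gRNA cells, so 12000 reads outside the ribosomal RNA row was set after seeing the data. The ratios were tested on simulated data. Members and the 26 lists were chosen with earlier results of these data known.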

Additional observations from a re-analysis of the deposited data

Results flagged for a closer look

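In 7 of 40 groups of 4 to 10 libraries examined, the highest or lowest library stood apart from the others. For continuous values chance gives such a gap in about 1 of 20 groups. Some groups here were mostly zeros, where a single read can be flagged, so that rate does not apply and no excess over chance can be read. Among the no-gRNA cells the high libraries held 52.5 CPM of Lgmn, 100.1 CPM of C1qa, 62.7 CPM of Sparc and 406 CPM of Dazap2, and the low library for Clmn held 0 CPM. Among the in-slice controls the high libraries held 135 CPM of Gfap and 0.463 CPM of Sox9. The Lgmn and Sparc values and that of Sox9 each rest on 1 read.

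Outside the comparison, the Trps1 guide row was read in 4 of the 21 cells labelled g-Sox9, with 2 reads at most, and in 0 of 6 no-gRNA cells.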

How the results depend on the processing

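No paired analysis was possible because the labels give no animal and no number shared between the groups. Genes past the fold numbered 5023 higher and 1234 lower. With median-of-ratios factors they were 3191 and 2206, and lower genes were 1992 with TMM, 1891 without the ribosomal RNA row and 377 without the highest cell of each pool. Higher genes were 7555 at a minimum of 5 CPM, 7555 with no minimum and 2677 at 50 CPM. The counts at 5 CPM and with no minimum are equal by construction. With 5 CPM added to each pool, no gene under 5 CPM can pass the fold. Leaving out each no-gRNA cell in turn gave 4466 to 5782 higher and 842 to 1579 lower genes, and medians of -0.36 to 0.026 for astrocyte identity, 4.38 to 6.02 for microglial markers and 2.16 to 2.47 for reactive genes.

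The astrocyte identity median of -0.32 was 0.12 on the mean of the cells' own CPM, -0.14 without the highest cells, -0.77 with series 7S, 0.25 with series 7S2., -1.14 with TMM, -0.90 without the ribosomal RNA row and -0.098 in cells with astrocyte markers. The reactive median of 2.46 was 1.45 without the highest cells, 1.84 with series 7S2. and 1.90 with TMM. The microglial median of 4.66 was 5.48, 4.96 and 4.05 under the same choices, and 5.03 in cells with astrocyte markers. The median over all genes moved from 1.43 by -0.38 with TMM, -0.49 with median-of-ratios factors, -0.18 without the ribosomal RNA row and 0.50 without the highest cells. These shifts do not rest on the same set of genes as the values set beside the lists. Over the 11896 genes used beside the lists, the median was 1.32 without the ribosomal RNA row and 1.44 without the highest cells. The shift of 0.50 puts the median at 1.93, above the reactive median of 1.45. Among single genes past the fold that were recomputed under every alternative, directions turned for Ccnd2 (-0.32 on mean log2 values), Sox11 (-0.49 with series 7S), Atp5j (-1.825 to 1.27 with each no-gRNA cell left out, and 0.89 on mean log2 values) and Col9a3 (-1.06 with series 7S2., -1.06 in cells with astrocyte markers and -0.027 on mean log2 values). Under the fold, the direction of Apoe, Aqp4, Btg2, Clu, Fos, Pcna, Slc1a3, Sox6 and Trps1 turned under 1 or more of them. The causes were not tested. Scaling without the ribosomal RNA row, the cells with astrocyte markers, the counts without the highest cells and the thinning depth were chosen after seeing the data.

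Depth limits the no-gRNA side, where 3 of 6 cells held under 100000 reads. By counting error alone, a pool without a read allows 0.910 CPM, and 0 of 6 cells allows a share of up to 45.9%. The 25 genes named by the rule kept their direction under every alternative run, with 1 gene each under the fold in series 7S2 alone and without no-gRNA cells 1 and 2. The rule itself fixed the direction in both series and without the highest cells, and a pseudocount cannot turn a sign. Because the genes were picked for large ratios, their kept direction is no independent check.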

Other observations

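Other gene groups had medians above and below that of all genes, whose median log2 ratio was 1.43. Of all genes, 63.5% were past the ratio as higher and 13% as lower, and the counts below stand beside those shares. Of 19 measured cell cycle genes, 18 were past the ratio as higher, with a median of 1.5. Mcm4, a replication helicase subunit, stood at 77.1 CPM in the g-Sox9 pool and 0 in no-gRNA cells. Rrm2, a subunit of ribonucleotide reductase, stood at 38.2 CPM in that pool and 0 in no-gRNA cells. They were read in 9 and 3 of 21 g-Sox9 cells. Pcna, the replication clamp, stood at 44.2 CPM in g-Sox9 cells and 23.3 CPM in no-gRNA cells. Wnt genes had 5 of 11 members higher and 1 lower (median 0.15). Of 34 oxidative phosphorylation genes, 15 were higher and 2 lower (median 0.87), with Atp5j, a subunit of ATP synthase, at 294 CPM in g-Sox9 cells and 671 CPM in no-gRNA cells. Of 29 immediate early and stress genes, 7 were higher and 4 lower (median 0.29), with the nuclear receptor Nr4a1 at 459 CPM in g-Sox9 cells and 2280 CPM in no-gRNA cells.

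Excitatory neuron markers had 9 of 12 members higher (median 1.31), pan-neuronal markers 11 of 16 (1.28) and inhibitory markers 3 of 6 with 2 lower (0.38). Over all genes 63.5% were higher and 13% lower, with a median of 1.43. Syt1, a calcium sensor of synaptic vesicles, stood at 600 CPM in g-Sox9 cells and 35.5 CPM in no-gRNA cells, and the dendritic protein Map2 at 158 CPM in g-Sox9 cells and 289 CPM in no-gRNA cells. Summed pan-neuronal markers ran from 93.9 to 56655 CPM per g-Sox9 cell and from 1233 to 3150 CPM per no-gRNA cell. Few markers of other types were measured: endothelial 3 (median 2.2), pericyte 2 (1.86), ependymal 3 (1.11) and erythroid 3 (1.0).

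The title series differed in transcripts of the sex chromosomes. Xist, the RNA of X inactivation, had 2 or more reads in 0 of 13 cells of series 7S, 7 of 8 of series 7S2. and 0 of 6 no-gRNA cells. Reads of Y genes were found in 12 of 13, 0 of 8 and 4 of 6 cells. The ribosomal RNA row took 19.8% of the pool of series 7S and 1.75% of that of series 7S2. Sex of the mice, sequencing of the series and any other difference between them cannot be told apart here.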
